A study of Rattus norvegicus with 8 samples.

Results

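The comparison of manganese (Mn) with control in N27 cells was described gene by gene, on 4 single-colour arrays, 2 from each group. N27 is an immortalised line made from embryonic rat midbrain, which the labels describe as dopamine producing, so every group is 1 cell line and no allele or transgene sets the groups apart. Mn was given at 150 µM for 48 h, and the labels give neither the salt nor what the control cells received. The other groups of the series, described only where they show what differs with Mn, were MPP+ (250 µM for 48 h), a known inhibitor of respiratory complex I, and 3-NPA, taken here as 3-nitropropionic acid, which is known to block succinate dehydrogenase, with no dose or time in the labels. Their 4 arrays also entered the fit that gives the standard errors and p-values of Mn against control. A gene was included if a probe for it was well above background on both control arrays or on both Mn arrays. That gave 15114 genes of the 16921 measured in any of the 4 groups, and 10875 of them carried a gene symbol.

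Manganese is an essential cofactor of enzymes such as arginase, glutamine synthetase and the mitochondrial superoxide dismutase, and in excess it is toxic to the basal ganglia and causes a movement disorder related to parkinsonism. It enters cells through transporters shared with iron and zinc and is exported by a small set of dedicated and shared carriers. The lists described below follow the processes that cells are known to engage under such stress: the integrated stress response, in which the transcription factor ATF4 raises amino acid uptake and synthesis, inflammatory transcription through NF-kB, signalling through the ERK kinases, the sterol pathway and metal handling.

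Levels are given as log2 of the processed signal relative to the 75th percentile of the same array, so that 0 is the 75th percentile and lower values are dimmer. Differences are log2 differences, Mn minus control unless another group is named, with the standard error from limma after the ± sign, and a gene is said to have risen or fallen only at an adjusted p below 0.05. Replicate arrays correlated at 0.992 across genes in both groups, which describes the arrays and not independent samples. The labels do not say whether replicates were separate cultures, and p-values then cover only how far these arrays differ from each other, which may be technical. Control and Mn arrays sat in different columns of 1 slide, so group and slide column cannot be told apart. The background differed too: the control arrays had 34060 and 32711 spots well above background, the Mn arrays 37964 and 38033, and the lowest processed signal was 8.10 and 9.18 against 3.27 and 3.41 intensity units. Of the tested genes, 1590 were not well above background on either control array and 6 on neither Mn array. For such a gene a fold is given as "at least", with the dim group taken at the lowest signal well above background on each array or at its own signal, whichever was higher. Its log2 difference after the normexp background correction is printed beside it, and the part of the background in these differences was not tested. The adjusted p of a dim gene comes from limma on its signals as measured, dim ones included, and does not test the bound.

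Mn was followed by a change in 1409 of the 15114 genes, 9.32% of those tested. The genes that rose numbered 854 (5.65%) and those that fell 555 (3.67%). A difference of at least 2-fold was reached by 267 of the genes that rose and 121 of those that fell, and by 133 and 120 with dim genes taken at their bounds. Genes that rose had a median level of -2.24 and genes that fell of -0.48, against -0.27 for genes that did not pass. Of the 854 rises, 271 rested on genes dim on both control arrays, while 6 of the 555 falls were dim on both Mn arrays. Limited to genes measured in both groups, a restriction chosen after seeing the data, 615 genes rose and 568 fell. Normexp gave 609 rises and 581 falls. For 51.4% of all tested genes both Mn arrays lay on 1 side of both control arrays, with no overlap, so separation of the arrays alone says little about a gene here. The count of 1409 dropped to 660 when Mn replicate 1 was left out and to 891 for Mn replicate 2. It was 749 on leaving out either array of MPP+, and 803 for either of 3-NPA. Of the genes that rose, 290 rose in each of the 8 fits that leave out 1 array, and 166 of those that fell did so. The fit of the 4 arrays alone called 271 genes. For Mn against control, leaving out either MPP+ array gives the same test, and so does leaving out either 3-NPA array.

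**Figure D1:**
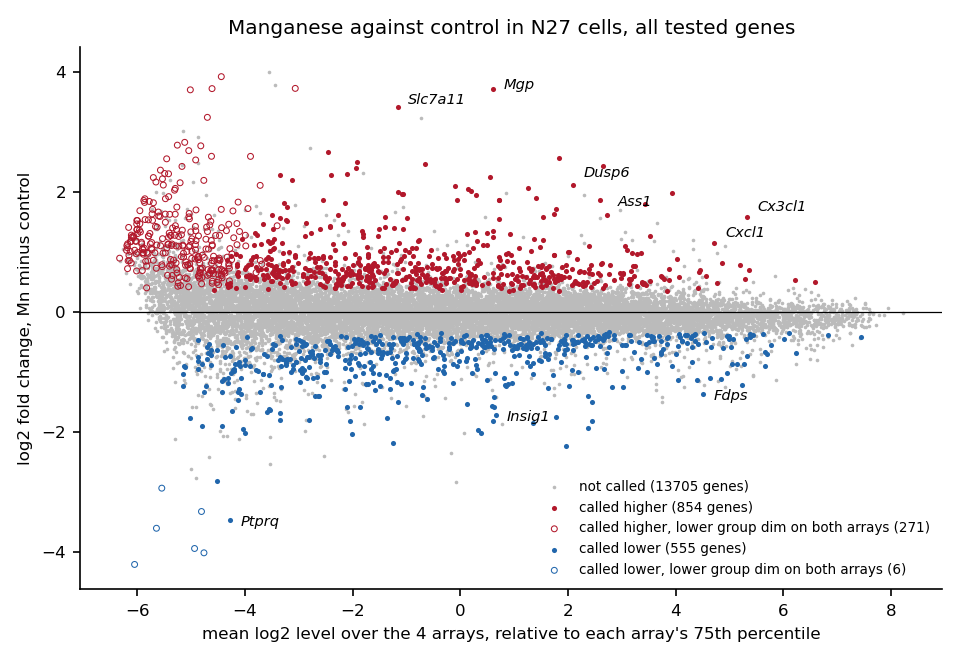
Every tested gene, by its mean log2 level over the 4 arrays (x axis, relative to the 75th percentile of each array) and its log2 fold change, Mn minus control (y axis). Red points are the 854 genes called higher and blue points the 555 called lower, and open circles are calls for genes dim on both arrays of whichever group was lower (271 higher and 6 lower), which lie at the low end of the level axis. Open circles are drawn at the measured difference and not at the bound.

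The largest rise, with genes dim with control taken at their bounds, was that of Mgp, matrix Gla protein, a secreted inhibitor of calcification (probe at chromosome 4, 173910827 to 173910886 on rn4). Mgp read -1.16 and -1.35 on the control arrays and 2.63 and 2.33 on the Mn arrays. Both Mn arrays lay far above both control arrays, a 13.3-fold rise (3.73 ± 0.13, adjusted p = 0.000207). Slc7a11, the exchanger that imports cystine for glutathione synthesis (chromosome 2, 139241468 to 139241527), read -2.78 and -2.97 on the control arrays and 0.61 and 0.49 on the Mn arrays. It rose 10.8-fold (3.43 ± 0.10, adjusted p = 0.000207). Srpx2, a secreted sushi-repeat protein, was dim on both control arrays (-5.06 and -4.80 with control and -1.06 and -1.34 with Mn) and rose at least 10.6-fold (adjusted p = 0.000358, 2.42 with normexp). Calls for these 3 genes held in each alternative that tested them, including the fit of the 4 arrays alone. Srpx2, dim with control, was not tested in the alternatives that required signal above background in both groups.

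Several genes for secreted proteins followed in size. Wfdc21 and Wfdc18, members of the family of whey acidic protein domain genes, rose by 2.67 ± 0.28 and 2.57 ± 0.13 (1.79 and 2.58 with normexp), and the other kept probe of Wfdc18 gave 2.70. Il1rn, the natural antagonist of the interleukin 1 receptor, read -2.96 and -3.38 with control and -0.50 and -0.81 with Mn, a rise of 2.51 ± 0.17. Flrt2, a membrane ligand in cell guidance, rose by 2.47 ± 0.20, and Wif1, a secreted inhibitor of Wnt signalling, by 2.20 ± 0.11 (1.36 with normexp). Mgmt, which repairs alkylated guanine in DNA, read -4.76 and -4.24 with control and -1.82 and -2.60 with Mn, with 1 of 2 control arrays well above background. It rose by 2.29 ± 0.28, adjusted p = 0.00647 (1.33 with normexp). Cox6a2, the subunit of cytochrome c oxidase known from heart and skeletal muscle, rose by 2.31 ± 0.16, yet it stayed below its level with MPP+ (-3.96 ± 0.16, adjusted p = 0.000317).

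Among the falls, Ptprq, a receptor phosphatase known from the inner ear, had the largest difference among genes not dim on both Mn arrays (-3.47 ± 0.55, adjusted p = 0.0153). With normexp that difference was -1.59, smaller in size than the -1.90 of Shc3 below. Ptprq read -2.81 and -2.27 on the control arrays and -6.94 and -5.08 on the Mn arrays, with 1 of 2 Mn arrays well above background. Its groups did not overlap, and the call was lost without control replicate 2 and with only the 4 arrays. Btnl5, a butyrophilin-like gene, fell (-2.82 ± 0.30, -1.27 with normexp), with 1 of 2 Mn arrays well above background, and its dimmer probe did not pass (-0.02 ± 0.46). Aldh1a1, a retinaldehyde dehydrogenase of a subset of dopaminergic neurons, was dim with Mn (-4.08 and -3.60 with control and -7.17 and -7.73 with Mn) and fell at least 4.67-fold (adjusted p = 0.00153, -1.09 with normexp). Shc3, a neuronal adaptor of growth factor receptors, read -0.06 and -0.23 with control and -2.41 and -2.25 with Mn and fell (-2.19 ± 0.11). The complement genes C5 and C4bpa, a complement inhibitor, fell (-1.96 ± 0.19 and -1.83 ± 0.29, or -1.02 and -1.46 with normexp), the latter call being lost without Mn replicate 1 and with only the 4 arrays. Cbs, cystathionine beta-synthase of the transsulfuration pathway, fell (-1.90 ± 0.14, adjusted p = 0.00137), and the difference was -0.83 with normexp. Lrp2, the endocytic receptor megalin, fell (-1.79 ± 0.11, -1.19 with normexp), and both of its probes passed. Rasl11a, a small GTPase, fell (-1.97 ± 0.13), Sh3rf2, a ring finger protein, (-2.02 ± 0.23, -1.09 with normexp), and Samd5, with 1 of 2 Mn arrays well above background, (-1.77 ± 0.19, -0.77 with normexp). Lypd6b fell (-2.03 ± 0.09) at its brighter probe and not at its dimmer one (0.10 ± 0.65). The histone gene Hist1h2bq fell (-2.01 ± 0.16), and its probes may read near-identical copies.

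**Figure D2:**
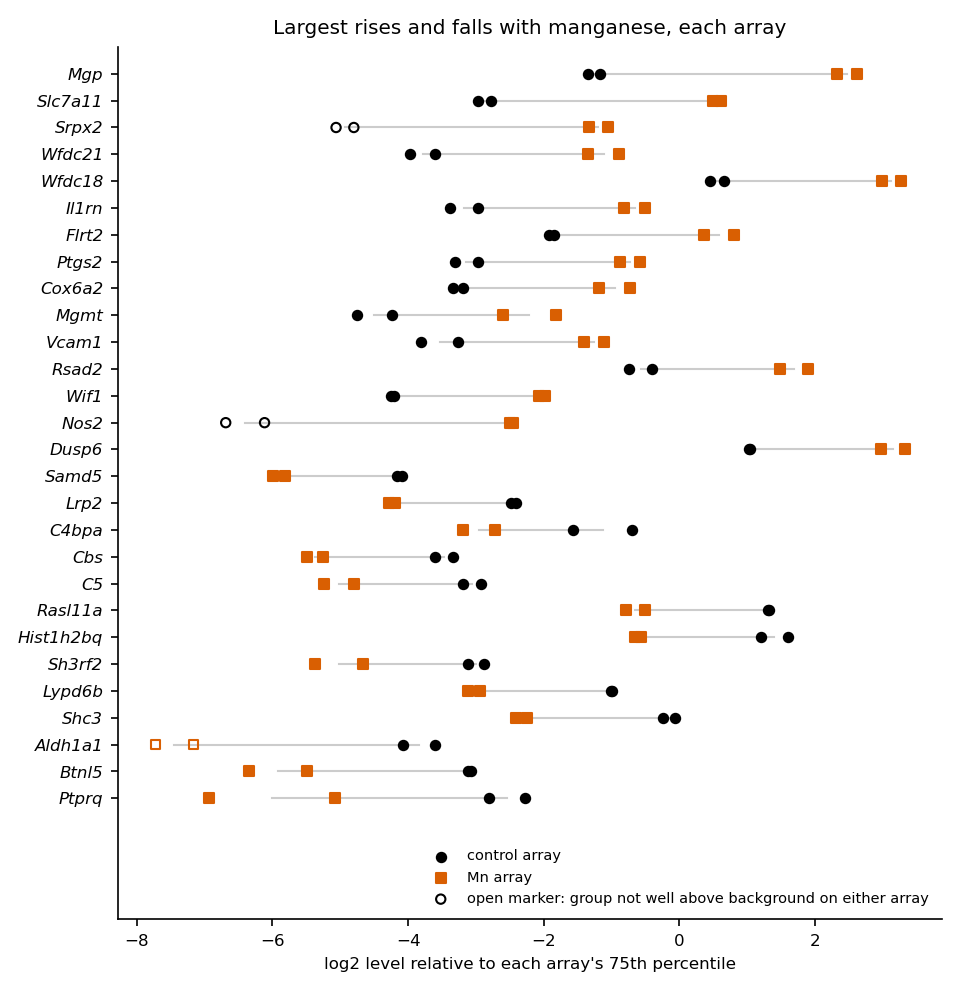
The log2 level of the 15 genes that rose most and 13 of the 15 that fell most on each of the 4 arrays (x axis, relative to the 75th percentile of each array), with black circles for control arrays, orange squares for Mn arrays and open markers where a group was not well above background on either array. Mgp reads -1.16 and -1.35 on the control arrays and 2.63 and 2.33 on the Mn arrays, and no gene shown has overlapping groups, which the choice of genes required.

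Of 46 gene lists, the one with the most members that rose was the inflammatory list, and the one with the most that fell was cholesterol synthesis. Counts in each list are read against the 5.65% of all tested genes that rose and the 3.67% that fell. Counts against MPP+ and 3-NPA are read against 12.2% and 29.6% of all tested genes, the shares that differed in either direction. A list near these shares does not stand out. Median differences are read against -0.01, the median of all tested genes. Scaling each array by its median, not by its 75th percentile, shifts that median to 0.06, so list medians within about that distance of 0 carry no direction. With only the 4 arrays, which leaves fewer degrees of freedom, 9 inflammatory genes, 3 interferon genes, 2 regulators of the stress response, 4 ERK genes, 2 immediate early genes and 6 targets of p53 rose. Below, a call is said to be lost in an alternative, of 22 that were run, where the gene was tested and did not pass. For Mn against control, the fits without either or both 3-NPA arrays are the same test, as are those without either MPP+ array. A loss there is counted more than once, so the numbers of alternatives are not numbers of separate tests.

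**Figure D3:**
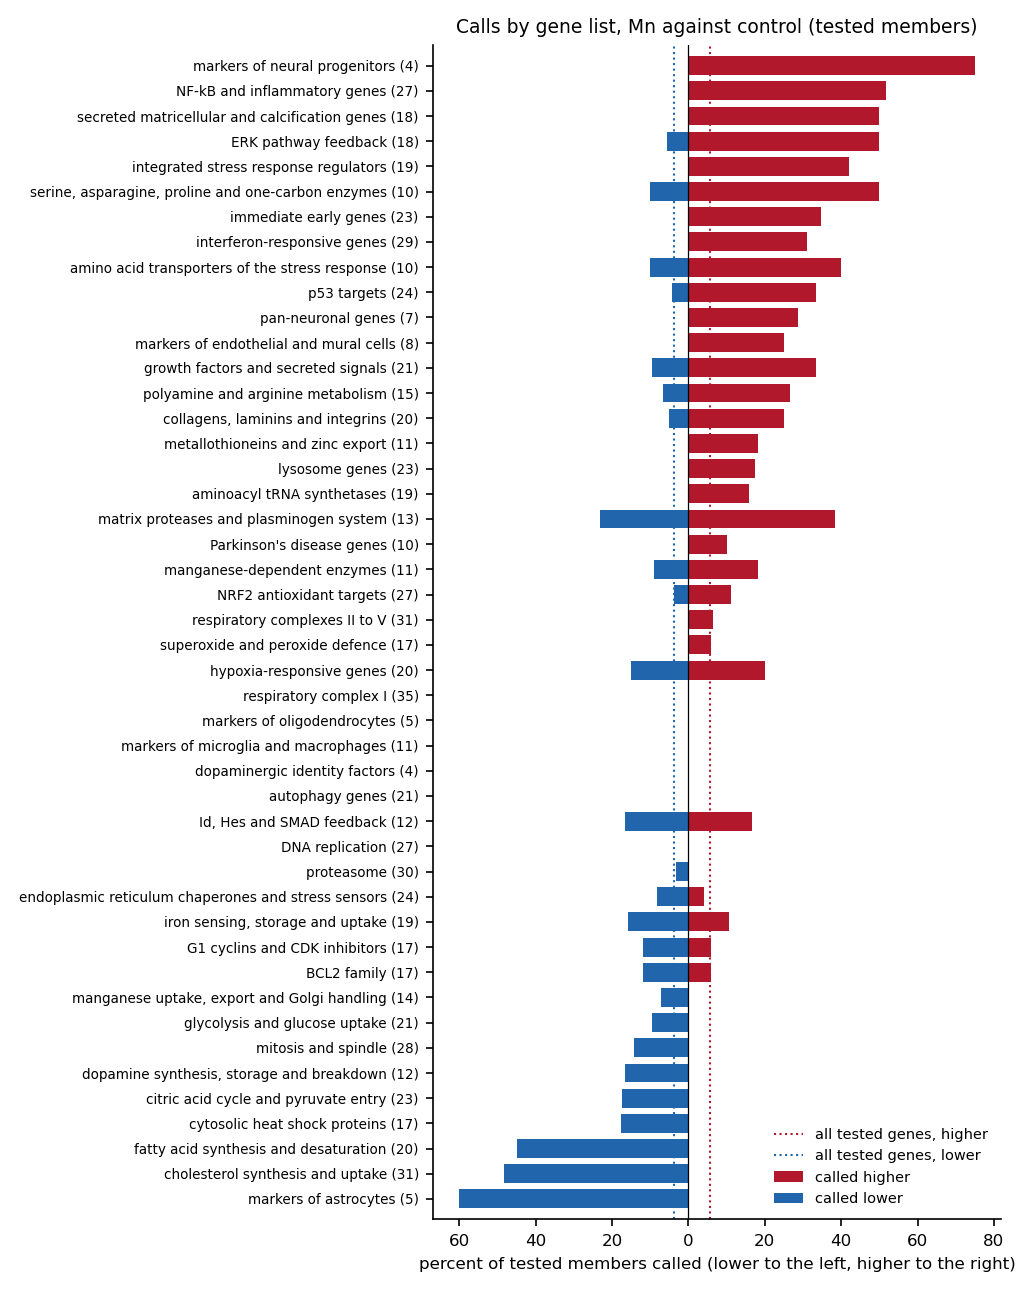
The percent of the tested members of each of the 46 lists that were called higher (red, to the right) or lower (blue, to the left) with Mn, with the number of tested members in brackets. Dotted lines mark the share of all tested genes called higher (5.65%) and lower (3.67%). Bars for cholesterol synthesis (15 of 31 lower) and the NF-kB list (14 of 27 higher) lie well past those lines, whereas complex I has no bar.

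Inflammatory genes, most of them known targets of NF-kB, had 14 of 27 tested members that rose and 0 that fell by limma (at an unadjusted p under 0.05, 19 were higher and 0 lower), against 5.65% of all genes that rose. The median difference was 0.61. The rises took in the chemokines that attract neutrophils and monocytes, an adhesion molecule, prostaglandin synthesis and nitric oxide synthesis. Nos2, which makes nitric oxide once induced (chromosome 10, 65072394 to 65072453), was dim on both control arrays and bright with Mn (-6.12 and -6.69 with control and -2.49 and -2.45 with Mn), at least 4.38-fold higher (adjusted p = 0.000659, 1.70 with normexp). Csf2, the cytokine GM-CSF, read -7.03 and -6.71 with control and -3.28 and -3.03 with Mn, at least 2.72-fold higher (adjusted p = 0.00101, 1.5 with normexp). The chemokine Cx3cl1, fractalkine, was already bright and rose 3.02-fold, reading 4.58 and 4.48 with control and 6.24 and 6.0 with Mn (1.59 ± 0.11, adjusted p = 0.00109). Cxcl2, a ligand of the neutrophil receptor CXCR2 (chromosome 14, 18677165 to 18677224), read 2.45 and 2.59 on the control arrays and 4.46 and 4.20 on the Mn arrays. It rose 3.49-fold (1.80 ± 0.13, adjusted p = 0.0011), and its neighbour in the family, Cxcl3, 3.12-fold (1.64 ± 0.13, adjusted p = 0.00147). These family members are close in sequence, and how far their probes are read by each other was not tested. Vcam1, the adhesion molecule for leukocyte integrins, read -3.81 and -3.26 with control and -1.11 and -1.40 with Mn and rose by 2.28 ± 0.20, adjusted p = 0.00191. Ptgs2, the inducible cyclooxygenase, rose by 2.41 ± 0.29, adjusted p = 0.00634, a call lost with array weights. Leaving out 1 array gave between 11 and 12 rises in this list, normexp 15, and genes measured in both groups 11.

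Many of these genes also differed between Mn and the other toxins, in contrasts that share the Mn arrays with the comparison above and no other array. Mn differed from MPP+ in 1842 genes (12.2%) and from 3-NPA in 4480 (29.6%), at doses that differ and, for 3-NPA, are not in the labels. The Mn arrays sat in slide row 1 and the MPP+ and 3-NPA arrays in row 2. The 3-NPA arrays also came from a later extraction run. In these contrasts group cannot be told apart from row, or for 3-NPA from run. The first count was 332 and 270 without MPP+ replicate 1 or 2, 798 and 1169 without Mn replicate 1 or 2 and 1021 without either 3-NPA array, and the second was 2213 and 2144 without 3-NPA replicate 1 or 2. In the inflammatory list 21 of 27 members were higher with Mn than with MPP+ and 0 lower, and 22 were higher and 1 lower than with 3-NPA. The medians were 0.97 and 0.99. Cxcl2 exceeded its level with MPP+ by 2.48 ± 0.13, adjusted p = 0.00049 and with 3-NPA by 2.74 ± 0.13, adjusted p = 0.000114. For Vcam1 these differences were 2.93 ± 0.20 and 2.75 ± 0.20, and for Cx3cl1 1.25 ± 0.11 and 0.99 ± 0.11.

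**Figure D4:**
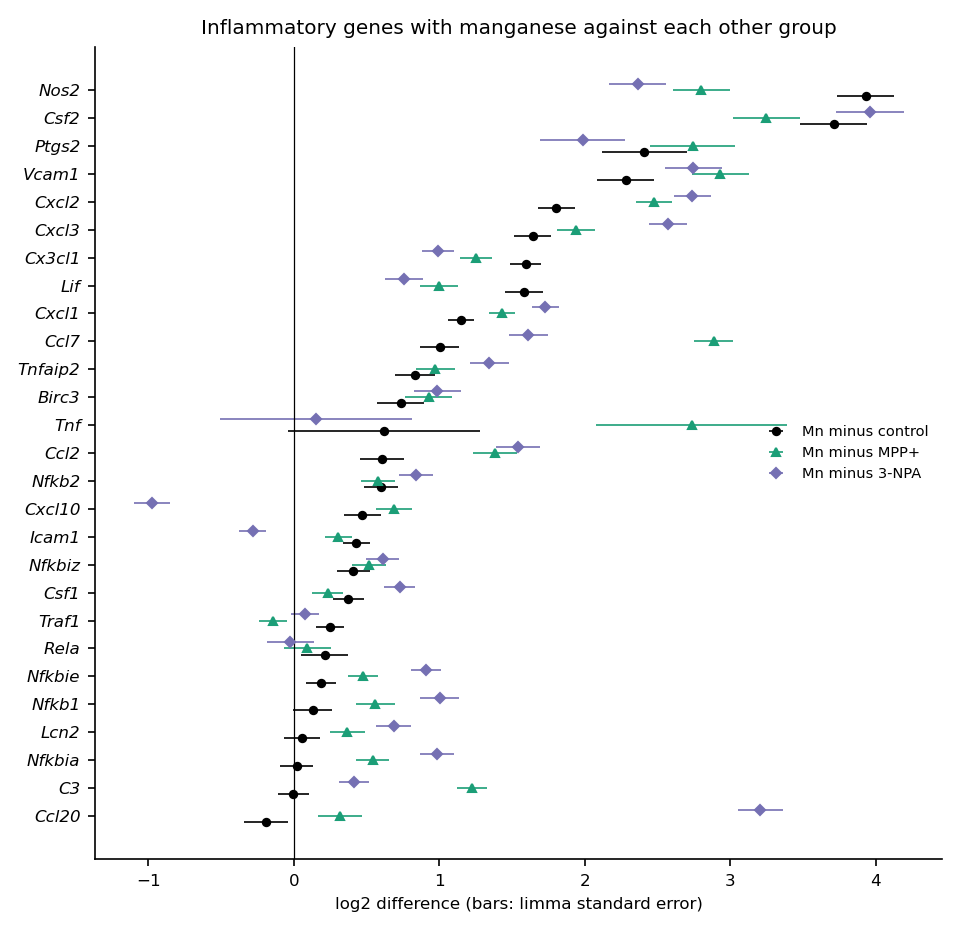
Log2 differences of the 27 tested inflammatory genes (x axis, bars are limma standard errors) between Mn and control (black circles), Mn and MPP+ (green triangles) and Mn and 3-NPA (purple diamonds), ordered by the difference from control. Nos2 and Csf2, which were dim on the control arrays, are at the top, drawn at their measured differences and not at their smaller bounds. Of the 27 green triangles, 21 are differences from MPP+ that passed the test.

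Promoters of the inflammatory genes were set beside these values because the kappaB site is the sequence that NF-kB dimers bind. In the 250 bases before the start of each gene (RefSeq, GRCr8), a match to the kappaB consensus on either strand was found in 11 of 21 list members with a promoter in the table and in 6.41% of all 27457 promoters. The share was 8.39% for tested genes, and 5 of 10 called list members held a match. Shares in lists built around known targets say nothing by themselves about Mn, here and for the elements below. The called members with the smallest p that held a match were Cxcl2 (chr14:17467294-17467353, minus strand of the genome) and Cxcl1 (chr14:17479370-17479429, minus strand), shown 5′ to 3′ on the gene's strand with the match nearest the start in capitals.
Cxcl2: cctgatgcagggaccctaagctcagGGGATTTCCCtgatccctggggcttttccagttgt
Cxcl1: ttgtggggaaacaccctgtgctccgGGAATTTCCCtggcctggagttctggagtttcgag
Cxcl2 held 3 matches, counted on each strand. The site shown for it fits the consensus on both strands and so was counted on each. Cxcl1, named after its values were seen, rose by 1.15 ± 0.09, adjusted p = 0.00151 and held 2. A match is a run of letters and no evidence that the factor was bound here.

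Genes of arginine metabolism changed in both directions. Nos2 uses arginine to make nitric oxide, and Ass1, argininosuccinate synthase, remakes arginine from citrulline. Ass1 (chromosome 3, 10620727 to 10622079) read 1.92 and 1.91 on the control arrays and 3.55 and 3.5 on the Mn arrays. Both Mn arrays lay above both control arrays, and it rose 3.06-fold (1.61 ± 0.08, adjusted p = 0.000659). Arg1, the cytosolic arginase and a manganese enzyme, read -1.11 and -0.88 on the control arrays and 1.01 and 0.73 on the Mn arrays, a 3.65-fold rise (1.87 ± 0.13, adjusted p = 0.00109). Arg2, the mitochondrial arginase, went the other way, reading 0.34 and 0.33 with control and -0.40 and -0.23 with Mn (-0.65 ± 0.09, adjusted p = 0.0109), and was lower with Mn than with MPP+ (-3.01 ± 0.09, adjusted p = 0.000122). Odc1, ornithine decarboxylase and the first step of polyamine synthesis, rose by 0.40 ± 0.08, adjusted p = 0.036, a call lost in 13 alternatives. The whole list of polyamine and arginine genes had 4 of 15 members that rose and 1 that fell.

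Of 29 tested genes known to respond to interferon, 9 rose and 0 fell by limma, against 5.65% and 3.67% of all tested genes. At an unadjusted p under 0.05 by limma, 11 were higher and 3 lower. The median difference was 0.19. Rsad2, the antiviral protein viperin, read -0.74 and -0.40 on the control arrays and 1.90 and 1.48 on the Mn arrays, a 4.79-fold rise (2.26 ± 0.17, adjusted p = 0.00144). Usp18, which removes ISG15 and dampens the interferon receptor, rose by 1.26 ± 0.14, adjusted p = 0.00456, and the interferon regulatory factor Irf7 by 0.59 ± 0.08, adjusted p = 0.00812. Ifi27 rose by 0.78 ± 0.10, adjusted p = 0.00795. Oasl, of the oligoadenylate synthetase family, was dim with control and at least 1.47-fold higher, a call lost with normexp (0.30). This list was lower with Mn than with 3-NPA for 11 members and higher for 5. Rsad2 stood below its 3-NPA level (-1.62 ± 0.17, adjusted p = 0.00145). The interferon element GAAANNGAA, searched on both strands, was in 12 of 21 promoters of the list and 7.99% of all promoters.

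Of 19 tested regulators of the integrated stress response, 8 rose and 0 fell by limma, against 5.65% and 3.67% of all tested genes. At an unadjusted p under 0.05 by limma, 13 were higher and 0 lower. The median was 0.45, or 0.37 with bounds. Trib3, a pseudokinase that feeds back on ATF4 (chromosome 3, 142664936 to 142664995), read -0.29 and -0.13 on the control arrays and 1.80 and 1.52 on the Mn arrays. It rose 3.66-fold (1.87 ± 0.13, adjusted p = 0.0011). Sesn2, a leucine sensor that restrains mTORC1, rose by 1.19 ± 0.18, adjusted p = 0.0123 (0.66 with normexp), and Nupr1, a stress-induced nuclear protein, by 0.79 ± 0.10, adjusted p = 0.00742. The hormone Fgf21 rose by 0.89 ± 0.13, the mTORC1 inhibitor Ddit4 by 0.62 ± 0.11, the transcription factor Atf3 by 0.45 ± 0.09 and Ddit3, the factor CHOP, by 0.55 ± 0.11. Atf4 itself did not pass (0.37 ± 0.10, adjusted p = 0.0638), reading 5.05 and 5.18 with control and 5.44 and 5.53 with Mn. Trib3 stayed below its MPP+ level (-1.56 ± 0.13, adjusted p = 0.00179) and Ddit3 (-1.92 ± 0.11, adjusted p = 0.000737). In this list 8 members were lower with Mn than with MPP+ and 2 higher. Without 1 array, between 4 and 7 regulators rose. Calls for Sesn2 and Fgf21 were lost without Mn replicate 2, Ddit4 lost its call in 9 alternatives, and Atf3 and Ddit3 in 10 each. The other probe of Ddit4 did not pass (0.60 ± 0.29).

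Among amino acid transporters of the response 4 of 10 rose and 1 fell. Besides Slc7a11, the cationic amino acid transporter Slc7a3 rose 4.07-fold, reading -0.81 and -0.81 on the control arrays and 1.40 and 1.03 on the Mn arrays (2.02 ± 0.13, adjusted p = 0.00109). Slc7a1, another cationic transporter, rose by 0.94 ± 0.09, adjusted p = 0.00289, and its dimmer probe did not pass (0.76 ± 0.20). The glycine transporter Slc6a9 rose by 0.55 ± 0.11, a call lost in 12 alternatives and not made at its other probe (0.16 ± 0.31), whereas the glutamine transporter Slc38a1, near background, fell (-0.74 ± 0.15, adjusted p = 0.0348), a call lost in 11 alternatives. Asns, asparagine synthetase, read 0.88 and 0.99 on the control arrays and 2.0 and 2.05 on the Mn arrays, a 2.13-fold rise (1.09 ± 0.09, adjusted p = 0.00177). Mthfd2 of mitochondrial one-carbon metabolism rose by 0.98 ± 0.10, adjusted p = 0.00323, Aldh18a1 of proline synthesis by 0.85 ± 0.13 and Phgdh, the entry to serine synthesis, by 0.55 ± 0.11. The call for Aldh18a1 was lost without Mn replicate 2 and not made at its other probe (0.85 ± 0.21), and that for Phgdh was lost in 10 alternatives. The enzyme list had 5 of 10 members that rose and 1, Cbs, that fell, and without 1 array between 3 and 4 rose. Of 19 aminoacyl tRNA synthetases 3 rose, Iars1, Eprs1 and Lars1, by 0.54 to 0.56. Those 3 calls were each lost in at least 9 of the alternatives. Against MPP+, Mn was lower in 7 of 10 transporters, 8 of 10 enzymes and 8 of 19 synthetases, and higher in 0, 0 and 0. Against 3-NPA it was lower in 4 transporters, 0 enzymes and 0 synthetases and higher in 0, 1 and 4, with a median of 0.12 for the synthetases.

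ATF4 with its partners binds the amino acid response element, searched here as TGATGNAAN on both strands in the 250 bases before the gene start. It occurred in 3.25% of all promoters, in 4 of 18 promoters of the regulators, 3 of 8 of the transporters, 2 of 9 of the enzymes and 5 of 16 of the synthetases. The called members with a match and the smallest p are shown 5′ to 3′ on the strand of the gene, from RefSeq (GRCr8), with the element or its reverse complement in capitals, because this is the sequence that the pathway is known for. They lie at chr3:161275534-161275580 (Trib3, minus strand), chr1:190645924-190645982 (Nupr1, minus), chr12:11664433-11664487 (Slc7a1, plus), chr7:129681510-129681568 (Slc38a1, minus), chr10:106420910-106420968 (Pycr1, minus) and chr17:15193653-15193702 (Iars1, minus).
Trib3: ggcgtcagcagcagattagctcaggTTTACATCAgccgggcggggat
Nupr1: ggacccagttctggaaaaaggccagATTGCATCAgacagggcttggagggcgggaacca
Slc7a1: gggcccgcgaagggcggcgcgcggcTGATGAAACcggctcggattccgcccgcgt
Slc38a1: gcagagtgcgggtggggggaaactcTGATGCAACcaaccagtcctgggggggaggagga
Pycr1: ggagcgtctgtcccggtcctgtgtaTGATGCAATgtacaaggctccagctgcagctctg
Iars1: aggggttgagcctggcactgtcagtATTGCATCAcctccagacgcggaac
Slc38a1 carried the element and fell, and Pycr1, of proline synthesis and named after its values were seen, was dim on both control arrays, so that no fold is given for it (adjusted p = 0.0354).

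ERK is known to induce its own phosphatases and the ETS factors of the ETV group. In the list of such genes 9 of 18 tested members rose and 1 fell, against 5.65% and 3.67% of all tested genes. The median was 0.79, or 0.64 with bounds, and 3 called members were dim on both control arrays. Dusp6, the phosphatase specific for ERK (chromosome 7, 36897369 to 36897428), read 1.05 and 1.03 on the control arrays and 3.32 and 2.98 on the Mn arrays. It rose 4.33-fold (2.11 ± 0.13, adjusted p = 0.00101) and exceeded its MPP+ level by 1.75 ± 0.13, adjusted p = 0.00115. Etv5 read 1.74 and 1.59 with control and 3.56 and 3.49 with Mn and rose by 1.86 ± 0.10, adjusted p = 0.000863, with a rise at its other probe too. Etv4 and the phosphatase Dusp2 were dim with control, at least 2.79-fold and 2.43-fold higher (0.88 and 0.89 with normexp). Epha2, an ephrin receptor, rose by 0.95 ± 0.09, adjusted p = 0.00297. Between 7 and 10 members rose without 1 array, and 7 among genes measured in both groups.

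Of 23 tested immediate early genes, 8 rose and 0 fell by limma (14 higher and 2 lower at an unadjusted p under 0.05), between 2 and 5 rose without 1 array, and 5 among genes measured in both groups. Fosl1, the AP-1 protein FRA-1, read -2.25 and -1.86 on the control arrays and 0.10 and -0.28 on the Mn arrays, a 3.91-fold rise (1.97 ± 0.17, adjusted p = 0.00209). Egr2 rose by 0.93 ± 0.19, Ier2 by 0.70 ± 0.14, and Klf2 and Maff, both dim with control, at least 1.78-fold and 1.83-fold (0.43 and 0.50 with normexp). Egr2 and Ier2 each lost the call in 10 alternatives, and Maff without either Mn array. Fos itself did not pass, reading 0.71 and 0.65 with control and 0.66 and 0.16 with Mn (-0.28 ± 0.18, adjusted p = 0.374), nor did Myc (0.27 ± 0.14, adjusted p = 0.279). Yet against MPP+ Fos was higher with Mn by 4.21 ± 0.18, adjusted p = 0.000369 and Egr2 by 3.71 ± 0.19, adjusted p = 0.00049, and 12 members of the list were higher than with MPP+ and 0 lower. Against 3-NPA 6 were higher and 6 lower, with a median of 0.03. The AP-1 element TGANTCA, which lies within some forms of the antioxidant element below, was in 0 of 14 promoters of the early genes and 0 of 16 of the ERK list, against 6.36% of all promoters.

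Of 31 tested genes for cholesterol synthesis and uptake, 15 fell and 0 rose by limma (22 lower and 2 higher at an unadjusted p under 0.05), against 3.67% of all genes that fell, with a median of -0.55. Summed over the list, the linear level was 338 and 366 on the control arrays and 232 and 220 on the Mn arrays, in units of each array's 75th percentile. Insig1, which holds the sterol sensor SCAP in the endoplasmic reticulum and is itself a target of SREBP (chromosome 4, 2578292 to 2578348), read 1.61 and 1.44 on the control arrays and -0.17 and -0.21 on the Mn arrays. It fell 3.28-fold (-1.72 ± 0.10, adjusted p = 0.000986). Fdps, farnesyl diphosphate synthase, read 5.15 and 5.24 on the control arrays and 3.66 and 3.98 on the Mn arrays, a 2.59-fold fall (-1.37 ± 0.13, adjusted p = 0.00251). Acat2, the cytosolic thiolase at the entry of the pathway, fell (-0.84 ± 0.09, adjusted p = 0.00465) and Mvd, of the mevalonate steps, (-0.77 ± 0.09, adjusted p = 0.00554). With scaling by the median 10 members fell, without 1 array between 9 and 13, and with only the 4 arrays 3. Against MPP+ the median of the list was 0.16, with 5 members higher and 1 lower with Mn, and against 3-NPA it was 0.14, with 11 higher and 5 lower.

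In the list of fatty acid synthesis and desaturation 9 of 20 tested members fell and 0 rose by limma, against 3.67% and 5.65% of all tested genes. At an unadjusted p under 0.05 by limma, 14 were lower and 1 higher. The median was -0.40. Elovl6, the elongase of saturated chains, read 1.48 and 1.42 on the control arrays and 0.30 and 0.16 on the Mn arrays, a 2.33-fold fall (-1.22 ± 0.11, adjusted p = 0.0022). Fasn, fatty acid synthase, fell (-0.89 ± 0.08, adjusted p = 0.00261) and the desaturase Scd2 (-0.86 ± 0.10, adjusted p = 0.00588). Fads2, the desaturase of polyunsaturated chains, fell (-0.98 ± 0.13, adjusted p = 0.00885) and Gpam, the first enzyme of glycerolipid synthesis, (-0.79 ± 0.11, adjusted p = 0.0103). Without 1 array between 5 and 9 members fell, with quantile normalization 6 and with only the 4 arrays 1. The sterol element, searched as TCACNCCAC on both strands, was in 0 of 22 promoters of the cholesterol list and 0 of 17 of the fatty acid list, against 0.976% of all promoters, so no promoter is shown. Absence of these letters says nothing about the factor.

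**Figure D5:**
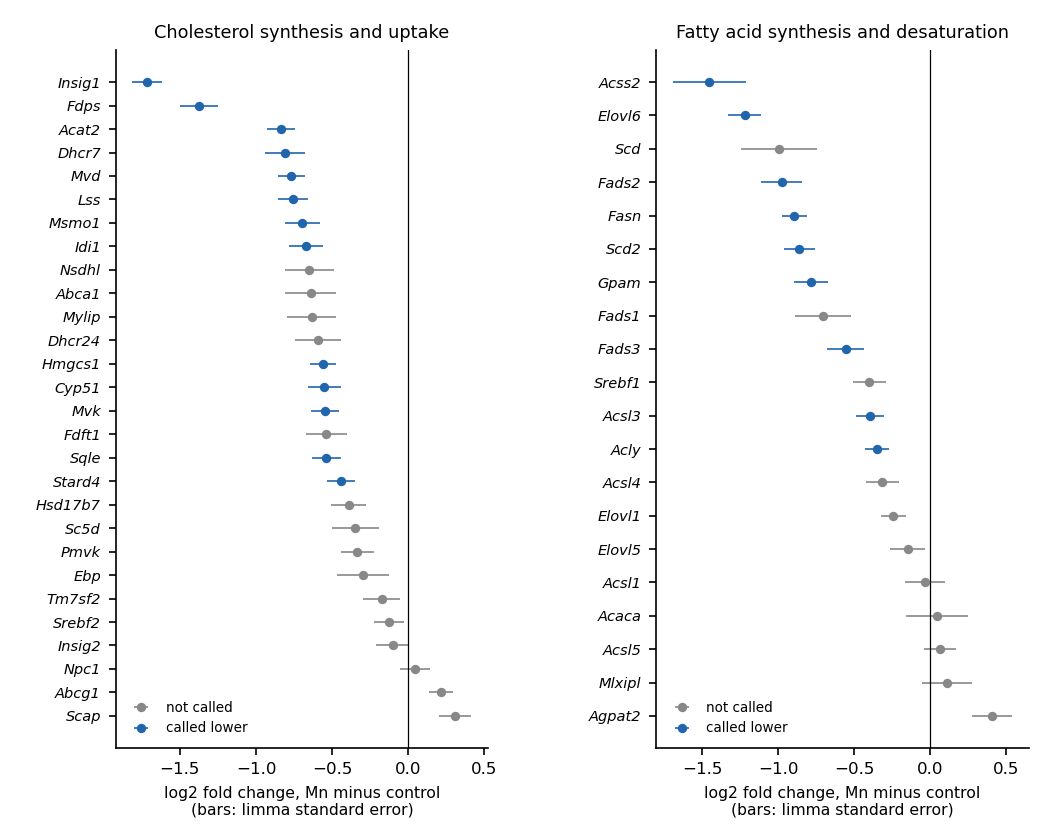
Log2 fold changes, Mn minus control (x axis, bars are limma standard errors), of 28 of the 31 tested genes of cholesterol synthesis and uptake (left) and the 20 of fatty acid synthesis and desaturation (right), ordered by size, with blue for genes called lower and grey for genes not called. Of the genes drawn, Insig1 and Fdps lie furthest to the left on the cholesterol side, and no gene in either panel was called higher.

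Most genes known to carry manganese did not pass. Of 14 tested members of the list on manganese uptake, export and Golgi handling, 1 fell and 0 rose by limma (2 were higher and 2 lower at an unadjusted p under 0.05). The member that fell was Slc40a1, ferroportin, the exporter of iron that also carries manganese (chromosome 9, 44978571 to 44978630). It read -1.74 and -1.56 on the control arrays and -2.42 and -2.57 on the Mn arrays, a 1.8-fold fall (-0.84 ± 0.10, adjusted p = 0.00629), lost with only the 4 arrays, and its dimmer probe did not pass (-0.68 ± 0.20). Slc11a2, the importer DMT1, read 4.66 and 4.66 with control and 4.39 and 4.41 with Mn and did not pass (-0.26 ± 0.08, adjusted p = 0.0942), while both of its dimmer probes fell (-0.68 ± 0.14 and -0.46 ± 0.08). The zinc and manganese importer Slc39a14 did not pass (-0.09 ± 0.21, adjusted p = 0.82), and its relatives Slc39a6 (0.23 ± 0.09), Slc39a10 (0.26 ± 0.14), Slc39a4 (-0.10 ± 0.11) and Slc39a11 (-0.09 ± 0.11) did not pass. Nor did the Golgi pump Atp2c1 (0.22 ± 0.20) and the Golgi protein Tmem165 (0.22 ± 0.09), or the P5 ATPases Atp13a1 (-0.24 ± 0.13), Atp13a2 (0.05 ± 0.12) and Atp13a3 (-0.35 ± 0.20). Ceruloplasmin, Cp, did not pass at its brighter probe (0.21 ± 0.16, adjusted p = 0.422) and rose at its dimmer one (0.62 ± 0.10). Transferrin, Tf, was dim on both control arrays (-4.81 and -5.87 with control and -4.77 and -5.39 with Mn) and did not pass (adjusted p = 0.818, 0.03 with normexp), so that no fold is given for it. Slc30a10, the dedicated manganese exporter, and Slc39a8 were not well above background on both arrays of either group.

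In the list of metallothioneins, small proteins that bind zinc and copper, and zinc exporters, 2 of 11 tested members rose. Mt3, the form known from brain, was dim on both control arrays (-4.77 and -4.78 with control and -2.52 and -2.79 with Mn) and rose at least 3.83-fold (adjusted p = 0.000659, 1.14 with normexp). Mt1 read 4.51 and 4.55 with control and 5.05 and 4.98 with Mn and rose 1.4-fold (0.48 ± 0.08, adjusted p = 0.02), a call lost in 9 alternatives. Mt2A (0.33 ± 0.10, adjusted p = 0.0916) and the zinc exporter Slc30a1 (-0.34 ± 0.08, adjusted p = 0.0504) did not pass. The other 7 members, Slc30a3 to Slc30a7, Slc30a9 and the sensor Mtf1, had differences between -0.14 and 0.08. Mt3 was lower with Mn than with 3-NPA (-1.73 ± 0.11, adjusted p = 0.000266).

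Iron genes gave 2 rises and 3 falls among 19 tested members, and without 1 array between 0 and 1 rose and 1 fell. Steap2, a metalloreductase, fell (-0.69 ± 0.09, adjusted p = 0.00895), and Slc25a37, mitoferrin, which carries iron into mitochondria, rose by 0.98 ± 0.17, adjusted p = 0.0221. The other probe of Steap2 did not pass (-0.53 ± 0.24), and the call for Slc25a37 was lost without control replicate 2 and without Mn replicate 1. Ireb2, the iron regulatory protein IRP2, fell (-0.49 ± 0.11) and Hamp, hepcidin, (-0.53 ± 0.12), with calls lost in 16 and 17 alternatives. Tfrc, the transferrin receptor, did not pass at its brighter probe (0.48 ± 0.12, adjusted p = 0.0537), while its dimmer probe rose (1.02 ± 0.13). Steap3 was dim with control and at least 1.34-fold higher (0.28 with normexp), a call lost in 12 alternatives. Among enzymes that need manganese, Sod2, the mitochondrial superoxide dismutase, read 4.60 and 4.95 with control and 4.84 and 4.95 with Mn and did not pass (0.12 ± 0.13, adjusted p = 0.589), nor did glutamine synthetase, Glul (-0.38 ± 0.12, adjusted p = 0.115). Pck2, the mitochondrial PEP carboxykinase, rose by 0.50 ± 0.08, adjusted p = 0.0171, a call lost in 6 alternatives. That list had 2 of 11 members that rose, Arg1 and Pck2, and 1 that fell, Arg2.

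Antioxidant targets of NRF2 had 3 of 27 tested members that rose, 1 that fell and a median of 0.00. Nqo1, a quinone reductase, read -3.99 and -4.19 on the control arrays and -2.77 and -3.07 on the Mn arrays. It rose 2.25-fold (1.17 ± 0.14, adjusted p = 0.00597, 0.65 with normexp), yet stayed below its 3-NPA level (-1.46 ± 0.14, adjusted p = 0.000944). Gsr, glutathione reductase, rose by 0.77 ± 0.11, adjusted p = 0.0118 (0.32 with normexp), a call lost in 5 alternatives, and the third was Slc7a11. Gclc, the catalytic subunit of glutathione synthesis, fell (-0.44 ± 0.10, adjusted p = 0.0443), a call lost in 15 alternatives. Haem oxygenase, Hmox1, had overlapping arrays (0.43 and -0.14 with control and 0.04 and 0.37 with Mn) and did not pass (0.05 ± 0.21, adjusted p = 0.89). In superoxide and peroxide defence 1 of 17 members rose, Gpx1 (0.59 ± 0.11), with the call lost in 9 alternatives. The antioxidant element TGACNNNGC was in 3 of 21 promoters of the list and 10.2% of all promoters, and in 0 of 3 of its called members.

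Of 24 tested targets of p53, 8 rose and 1 fell, against 5.65% and 3.67% of all tested genes. The median was 0.35, or 0.23 with bounds. Aen, a nuclease of apoptosis, read 0.92 and 0.56 on the control arrays and 2.45 and 2.22 on the Mn arrays, a 3.02-fold rise (1.59 ± 0.14, adjusted p = 0.00222). The death receptor Fas rose by 1.48 ± 0.20, adjusted p = 0.00881, with a rise at its other probe too. Mdm2, the ligase that degrades p53, rose by 1.22 ± 0.16, adjusted p = 0.00806, Phlda3, an inhibitor of Akt, by 1.07 ± 0.12, adjusted p = 0.00555 and the cyclin Ccng1 by 0.92 ± 0.13, adjusted p = 0.0101. Cdkn1a, the cell cycle inhibitor p21, depended on the probe. Its brighter probe read 1.78 and 1.77 with control and 1.84 and 2.0 with Mn and did not pass (0.14 ± 0.11, adjusted p = 0.45), and its dimmer probe rose (2.01 ± 0.13).

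In the cell cycle, Cdkn1c, the inhibitor p57, fell (-1.40 ± 0.14, adjusted p = 0.00297) and Cdkn2c (-0.73 ± 0.10, adjusted p = 0.0107), while Cdkn2b, the inhibitor p15, rose by 0.80 ± 0.08, adjusted p = 0.00308. The other probe of Cdkn1c did not pass (-1.08 ± 0.46). DNA replication had 0 of 27 members that passed by limma (2 higher and 1 lower at an unadjusted p under 0.05). Mitosis had 4 of 28 that fell, among them the kinases Aurka (-0.55 ± 0.09, adjusted p = 0.0151) and Plk1 (-0.39 ± 0.09, adjusted p = 0.0451), and between 0 and 2 without 1 array. Of the BCL2 family, the promoters of cell death Bmf (-1.1 ± 0.13, adjusted p = 0.00588) and Bcl2l11, known as BIM (-1.02 ± 0.16, adjusted p = 0.0136), fell, and Pmaip1, known as NOXA, rose (1.12 ± 0.22, adjusted p = 0.0306). Plk1 lost its call in 16 alternatives, Pmaip1 in 5 and Bcl2l11 in 4, and Aurka lost it without Mn replicate 2.

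Hspa5, the main chaperone of the endoplasmic reticulum, read 5.10 and 5.02 with control and 4.97 and 4.99 with Mn and did not pass (-0.07 ± 0.11, adjusted p = 0.71). Of 24 genes of that compartment, Herpud1 rose (0.69 ± 0.12, adjusted p = 0.02) and Creld2 (-0.46 ± 0.08, adjusted p = 0.0195) and Calr (-0.54 ± 0.11, adjusted p = 0.0346) fell, with calls lost in 4, 10 and 13 alternatives. Among 17 cytosolic heat shock proteins 3 fell and 0 rose by limma (7 lower and 0 higher at an unadjusted p under 0.05). The small heat shock proteins Cryab (-0.86 ± 0.11, adjusted p = 0.00858) and Hspb8 (-1.09 ± 0.15, adjusted p = 0.00967) led them, and both were lower with Mn than with MPP+ (-0.92 ± 0.11 and -1.36 ± 0.15) and 3-NPA (-0.72 ± 0.11 and -1.30 ± 0.15). The proteasome had 1 of 30 members that fell (11 lower at an unadjusted p under 0.05) and a median of -0.15, which was -0.08 with scaling by the median. Autophagy genes had 0 of 21 that passed by limma (0 higher and 1 lower at an unadjusted p under 0.05). Lysosome genes had 4 of 23 that rose, and between 2 and 3 without 1 array, led by Gpnmb, a glycoprotein of stressed lysosomes, which read -1.15 and -1.16 on the control arrays and 1.04 and 0.86 on the Mn arrays, a 4.29-fold rise (2.10 ± 0.10, adjusted p = 0.000659).

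Respiratory complex I had 0 of 35 tested members that passed by limma (1 higher and 3 lower at an unadjusted p under 0.05) and a median of -0.05, which was 0.02 with scaling by the median. In complexes II to V, 2 of 31 rose, near the 5.65% of all tested genes. They were Cox6a2 and Uqcrq (0.56 ± 0.11, adjusted p = 0.0336, 0.16 with normexp), the latter call being lost in 13 alternatives. In the citric acid cycle and pyruvate entry 4 of 23 fell and 0 rose by limma (10 lower and 1 higher at an unadjusted p under 0.05), with a median of -0.23. Those 4 were the kinase Pdk2 (-0.72 ± 0.09, adjusted p = 0.00634), Idh1 (-0.61 ± 0.11, adjusted p = 0.0239), Sucla2 (-0.47 ± 0.09, adjusted p = 0.0275) and Pdhb (-0.52 ± 0.11, adjusted p = 0.0336), and with scaling by the median 1 member of the list fell. Without 1 array between 1 and 4 fell, and Idh1, Sucla2 and Pdhb lost their calls in 10, 12 and 11 alternatives. Glycolysis had 2 of 21 that fell, Aldoc (-0.99 ± 0.12, adjusted p = 0.0072) and Eno1 (-0.38 ± 0.09, adjusted p = 0.0457). The call for Eno1 was lost in 17 alternatives, and its other probes did not pass (-0.21 ± 0.15 and -0.18 ± 0.15). The called probe of Eno1 is placed on chromosome 3 and the others on chromosomes 5 and 10. Which copy each probe reads was not tested. The glucose transporter Slc2a1 did not pass (0.27 ± 0.08, adjusted p = 0.101). Genes known from hypoxia went both ways, with 4 of 20 rising and 3 falling. Bhlhe40, a repressor of the clock, rose 2.99-fold (1.58 ± 0.11, adjusted p = 0.00109), Vegfa 2.01-fold (1.01 ± 0.11, adjusted p = 0.00444) and Egln3, an oxygen sensor, 1.86-fold (0.89 ± 0.09, adjusted p = 0.00297), while Lox, which crosslinks collagen, fell 2.65-fold (-1.41 ± 0.11, adjusted p = 0.00148) and the peptide hormone Adm 1.82-fold (-0.87 ± 0.08, adjusted p = 0.00224).

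The dopaminergic label was set against known markers, of which several were not well above background. Th, tyrosine hydroxylase, which makes the dopamine precursor L-DOPA (chromosome 1, 203164254 to 203164313), was above background and read -1.84 and -1.93 on the control arrays and -1.87 and -2.02 on the Mn arrays. Its arrays overlapped and it did not pass (-0.06 ± 0.09, adjusted p = 0.719). The vesicular transporter Slc18a2 was detected and did not pass (0.47 ± 0.12, adjusted p = 0.0602), and Ddc, the decarboxylase, was dim on the control arrays (-4.80 and -5.44 with control and -4.38 and -5.27 with Mn). The dopamine transporter Slc6a3 and the factors Pitx3 and Foxa2 were not well above background on both arrays of either group, and of 12 dopaminergic identity factors on the array 8 were not. Of 12 tested genes of dopamine synthesis, storage and breakdown, 2 fell and 0 rose by limma (2 lower and 1 higher at an unadjusted p under 0.05): Aldh1a1 above, and Gch1, which starts synthesis of the cofactor of Th, reading 1.63 and 1.67 with control and 0.72 and 0.91 with Mn (-0.84 ± 0.10, adjusted p = 0.00588). The remaining 10 members, among them Maoa (-0.19 ± 0.11), Aldh2 (0.14 ± 0.11), Spr (0.15 ± 0.09), Qdpr (-0.12 ± 0.15) and Pts (-0.06 ± 0.15), did not pass. Slc18a1, another vesicular transporter among them, was dim on both control arrays (-4.92 and -5.05 with control and -5.41 and -4.92 with Mn, adjusted p = 0.617). Among genes of inherited Parkinson's disease, 1 of 10 rose, the mitochondrial kinase Pink1 (0.48 ± 0.09, adjusted p = 0.0238, a call lost in 10 alternatives), and Atp13a2 did not pass. Of 24 pan-neuronal genes on the array, 7 were tested, and Ncam1 (0.76 ± 0.13, adjusted p = 0.0194) and Tubb3 (0.76 ± 0.15, adjusted p = 0.0314) rose. Those calls were lost in 5 and 10 alternatives, and without 1 array between 0 and 2 members rose.

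In the matricellular list 9 of 18 tested members rose and 0 fell by limma, against 5.65% and 3.67% of all tested genes. At an unadjusted p under 0.05 by limma, 9 were higher and 4 lower. The median was 0.27, or 0.01 with bounds. The small proteoglycans Fmod (0.79 ± 0.09, adjusted p = 0.0048) and Bgn (0.66 ± 0.10, adjusted p = 0.0126) and the matrix protein Ecm1 (0.67 ± 0.11, adjusted p = 0.0192) were among them. Without 1 array between 4 and 6 members rose, and with only the 4 arrays 3. Ecm1 lost its call in 5 alternatives, and the other probe of Bgn did not pass (0.60 ± 0.31). Of the collagen, laminin and integrin genes 5 of 20 rose and 1 fell, with Col8a1 (1.36 ± 0.11, adjusted p = 0.00164), Col1a1 (0.69 ± 0.10, adjusted p = 0.011) and fibronectin, Fn1 (0.67 ± 0.12, adjusted p = 0.0243), rising and the integrin Itga1 (-0.56 ± 0.09, adjusted p = 0.015) falling. Without 1 array between 1 and 5 rose, and with only the 4 arrays 1. The call for Fn1 was lost in 11 alternatives, that for Col1a1 without Mn replicate 1 and that for Itga1 without Mn replicate 2. Ccn2, connective tissue growth factor, read 0.33 and 0.12 on the control arrays and 2.44 and 2.14 on the Mn arrays, a 4.18-fold rise (2.06 ± 0.13, adjusted p = 0.00109). Adamts1, a protease of proteoglycans, fell 2.4-fold (-1.26 ± 0.10, adjusted p = 0.00142). The proteases Mmp13 and Mmp9 were dim with control, Mmp13 at least 1.11-fold higher (0.50 with normexp) and Mmp9 with no bound on its fold (0.61 with normexp). Bdnf, the neurotrophin, rose by 1.14 ± 0.11, adjusted p = 0.00328 (0.65 with normexp), and Wnt7b, dim with control, was at least 1.27-fold higher (0.51 with normexp). The dimmer probes of Col1a1 (0.11 ± 0.11) and Fn1 (0.43 ± 0.19) did not pass. Id2, an inhibitor of helix-loop-helix factors, fell 2.82-fold (-1.5 ± 0.16, adjusted p = 0.00417), and Bambi, a decoy receptor of TGF-beta, (-0.63 ± 0.13), a call lost in 11 alternatives.

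Markers of other neural and non-neural cells were examined for the purity of the line. Of 11 astrocyte markers on the array 5 were tested and 3 fell: Ndrg2 (-1.0 ± 0.09, adjusted p = 0.00222), the connexin Gja1 (-1.0 ± 0.10, adjusted p = 0.00338) and Aldoc, with Gfap, Aqp4, Slc1a2 and Slc1a3 not well above background. The summed linear level of the 5 was 18.8 and 18.0 on the control arrays and 8.96 and 9.93 on the Mn arrays. Most of it came from Aldoc and Ndrg2, whose mean log2 levels with control were 3.49 and 2.69. Of the microglial markers 11 of 16 were tested and 0 passed by limma (4 higher and 0 lower at an unadjusted p under 0.05), with summed levels of 1.03 and 1.1 against 1.30 and 1.33, and the leukocyte gene Ptprc and the complement genes C1qa and C1qc not well above background. The part of such cells in the inflammatory rises was not tested. Oligodendrocyte markers had 0 of 5 that passed by limma (2 higher and 0 lower at an unadjusted p under 0.05) and summed levels between 0.393 and 0.445 on the 4 arrays. Endothelial and mural markers had 2 of 8 that rose, smooth muscle actin Acta2 (1.04 ± 0.09, adjusted p = 0.00177) and Pdgfrb (0.55 ± 0.11, adjusted p = 0.0288, a call lost in 10 alternatives), with Pecam1 and Kdr not well above background. Progenitor markers had 3 of 4 that rose, the filament proteins Vim (0.98 ± 0.13, adjusted p = 0.00877) and Nes (0.42 ± 0.09, adjusted p = 0.0323) and the receptor Notch1 (0.42 ± 0.08, adjusted p = 0.0275), with Sox2 and Pax6 not well above background. Without 1 array between 1 and 2 of them rose, and with only the 4 arrays 0. Nes and Notch1 lost their calls in 12 and 10 alternatives, and the other probe of Nes did not pass (0.27 ± 0.11). In RNA of a whole culture, a change in the cells present and a change in RNA per cell cannot be told apart.

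Of the 10875 tested genes with a symbol, 120 were higher and 75 lower with Mn than in all the other groups. These passed in the same direction against control, MPP+ and 3-NPA. Genes were kept by the control and Mn arrays alone, so a gene could enter through the Mn arrays only. How many of the 120 did so was not counted. These 3 contrasts share the Mn arrays, and in those with MPP+ and 3-NPA group cannot be told apart from slide row. Mgp was higher with Mn than with MPP+ by 4.62 ± 0.13, adjusted p = 0.000122 and than with 3-NPA by 3.81 ± 0.13, adjusted p = 6.05e-05. Wfdc21 differed by 2.99 ± 0.28 and 2.66 ± 0.28 and Ptgs2 by 2.74 ± 0.29 and 1.99 ± 0.29. The adhesion molecule Madcam1 was dim with control, at least 2.63-fold higher (0.69 with normexp). On the lower side Ptprq differed by -3.61 ± 0.55 and -3.83 ± 0.55, while for Lypd6b the differences were -1.87 ± 0.09 and -1.51 ± 0.09. Dact1, an antagonist of Wnt signalling, fell against control (-1.24 ± 0.17, adjusted p = 0.00877), the nuclear interferon-related gene Mnda (-1.09 ± 0.11, adjusted p = 0.00365), Cd6, a T cell receptor whose dimmer probe did not pass (-0.05 ± 0.11), (-1.24 ± 0.14, adjusted p = 0.00567) and the Rac regulator Arhgap24 (-1.38 ± 0.15, adjusted p = 0.00409). Paqr5 (-1.18 ± 0.13), the keratin Krt79 (-1.19 ± 0.10) and the actin-oxidising enzyme Mical1 (-0.94 ± 0.14) completed the set with Hspb8, and the call for Mical1 was lost without either Mn array.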

How the data were processed

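RNA of 8 arrays in 4 groups of 2 was measured on a single-colour Agilent rat array. Intensity values are the deposited scanner output of Agilent Feature Extraction 11.5.1.1, background-subtracted by the authors' scanner software per the file headers, with probe positions on rn4. The authors' deposited value table holds log2 values that correlate with log2 of the processed signal at 0.9966 or more on each array, with column medians from -4.38 to -3.99. The tool and the centring behind that table are not given in the sources used here, and it served as an alternative.

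Here log2 of the processed signal was taken relative to the 75th percentile of each array over spots that were not controls, without outlier spots, and spots of 1 probe were averaged. A probe was kept if well above background on both arrays of either group, and the brightest kept probe stood for its gene. Symbols came from RefSeq through the accession on the array, with 18345 of 30367 probes matched, and otherwise from the gene name in the array files. In all, 21404 probes carried a symbol. A limma 3.58.1 fit (R 4.3.3) of 4 group means over 8 arrays gave each contrast, with Benjamini-Hochberg adjustment over 15114 genes. The exact 2-sided permutation test of 2 against 2 arrays cannot go below p = 0.333, so no such test is printed. The fit was tested on simulated data. Precision is limited by 2 arrays per group: the median standard error was 0.130 and the smallest size called 0.34.

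The members and lists were chosen with earlier results of these data known. Named genes were the 15 largest rises and falls with groups that do not overlap, up to 5 called members per list by smallest p (up to 2 members of a list with no call), all measured members of the lists on manganese handling, metallothioneins and dopamine, up to 10 per direction called against all 3 groups, and 26 fixed genes. Alternatives covered background correction, scaling, the deposited table, filters, probe averaging, variance models, array weights, the arrays fitted and each array left out. A few genes that meet the rule are not reported here by name and not drawn by name, and they stay in the fit and in the counts.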

Additional observations from a re-analysis of the deposited data

How the results depend on the processing

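The main counts were 1409 genes changed with Mn, 854 higher and 555 lower, 1842 against MPP+ and 4480 against 3-NPA. Leaving out 1 array gave 660 to 1431 changed, 417 to 821 higher, 243 to 610 lower, 270 to 2169 against MPP+ and 2144 to 5031 against 3-NPA. Array weights gave 548, 348 and 200, the 4 arrays alone 271, 188 and 83, and the fit without the 3-NPA arrays 803, 514 and 289, with 1021 against MPP+. Requiring 2-fold gave 388, 267 and 121, with 337 against MPP+ and 966 against 3-NPA. With no filter on dim probes 7082 genes passed, 6059 of them lower, and 567 against MPP+. Scaling by the median left 299 lower. The share of calls that were higher, 60.6%, became 75.2% with scaling by the median, 14.4% with no filter and 50.2% with a filter on all 4 arrays. Deviations of same-numbered arrays correlated at -0.05 for control and Mn, 0.12 for Mn and MPP+, 0.58 for Mn and 3-NPA and between -0.01 and 0.16 for the other 3 pairs of groups. Not every pair of groups exceeded 0.1, so no pairing entered the main fit. What the value of 0.58 for Mn and 3-NPA reflects was not tested. The replicate block gave 1228 calls, 1658 against MPP+ and 4397 against 3-NPA. Fgf2, dim on both control arrays, turned from 1.22 to -2.07 in the deposited table (adjusted p = 0.0816 by limma). Of the values of named genes under the alternatives, 4187 kept direction and side of the threshold, 600 no longer passed, 33 newly passed, 41 moved without a test and 1 reversed. Fewer genes, arrays or degrees of freedom enter some of these fits by construction, and for the others the cause was not tested. Probes near background limit the fold of 271 higher calls.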
